A study of Rattus norvegicus with 6 samples.

Results

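Of 176698 genomic regions with a histone lactylation peak in rat tenocytes, 980 (0.555%, Wilson 95% interval 0.521 to 0.590) carried peaks of H3K9la, H4K8la and H4K16la after lactate but of exactly 1 of these marks in untreated cells. They were found by pooling the peaks of the 6 lists, merging those that overlap by at least 1 bp and noting which lists had a peak in each merged region. The control peak was H3K9la in 465 of these members, H4K8la in 324 and H4K16la in 191. The members were chosen by the calls themselves, so the presence of 3 marks with lactate and 1 in control is how they were found and is not a result.

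Wild-type cells labelled tenocytes, the resident fibroblasts of tendon, were profiled by CUT&Tag. In this method a transposase, tethered by an antibody to chromatin with the mark, cuts out fragments for sequencing. There was 1 library per mark of untreated cells (control) and 1 of cells given 20 mM lactate, 6 libraries in 6 groups. A free-text treatment field names lactate for all 6, so groups were taken from the titles, which match each sample's treatment entry. Age, sex and number of the animals are not stated in the labels, and peak lists hold no expression values, so the cell type could not be checked against marker genes. There were no replicates. No difference between libraries therefore has a replicate check, and no test was made. Every interval of a share covers counting error only. Intervals of medians come from the ranked values over regions and hold no replicate error either.

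In histone lactylation, lysine side chains receive a lactyl group made from lactate. Lysine acetyltransferases can place it and histone deacetylases can remove it, so it tends to sit on the same residues as acetylation and is often found at active promoters and enhancers. H3K9 lies on the tail of histone H3, and H4K8 and H4K16 on the tail of histone H4, where acetylation of H4K16 is known to loosen chromatin. Regions are given by position in build rn7, counted from 1. Genes, exons and sequences are not assigned, because no annotation or genome of that build was used.

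Depth differed between the libraries of a mark. The lists carry no read totals, so depth was read from the genome-wide background (fragments covering a base on average), recovered from the deposited fold and −log10 p. The lactate library had 0.868 times the background of control for H3K9la, 1.18 times for H4K8la and 1.86 times for H4K16la. The backgrounds ran from 1.32 fragments in H4K8la control to 2.84 in H4K16la lactate, and the lists held 40681 to 62563 peaks.

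With lactate, 10997 regions carried all 3 marks, and the members were 8.91% (8.39 to 9.46) of them. A further 374 regions (3.4%) had no control mark, 2375 (21.6%) had 2 and 7268 (66.1%) had all 3. H3K9la was the control mark in 47.4% (44.3 to 50.6) of the members, H4K8la in 33.1% (30.2 to 36.1) and H4K16la in 19.5% (17.1 to 22.1). The control lists were unequal in length, and per 100 control peaks there were 0.752 members in the H3K9la class, 0.528 in the H4K8la class and 0.470 in the H4K16la class.

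This order of the classes depended on the processing. With every library scaled to the lowest background and −log10 p of at least 4, 498 members were left, and the H4K8la class was the largest with 212 against 176 for H3K9la and 110 for H4K16la. Without peaks whose local background was over 3 times the genome-wide one, there were 2057 members, and the H4K16la class was the largest with 842 against 805 for H3K9la and 410 for H4K8la. That filter takes out 25.8% of the H3K9la control peaks and 26.2% of the H4K8la control peaks but 10.1% of the H4K16la control peaks and 1.96% to 9.22% of the lactate peaks. Of the 2057 regions, 785 were among the original 980. With lists of equal length the order of the classes was kept, at 371, 311 and 246.

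**Figure D1:**
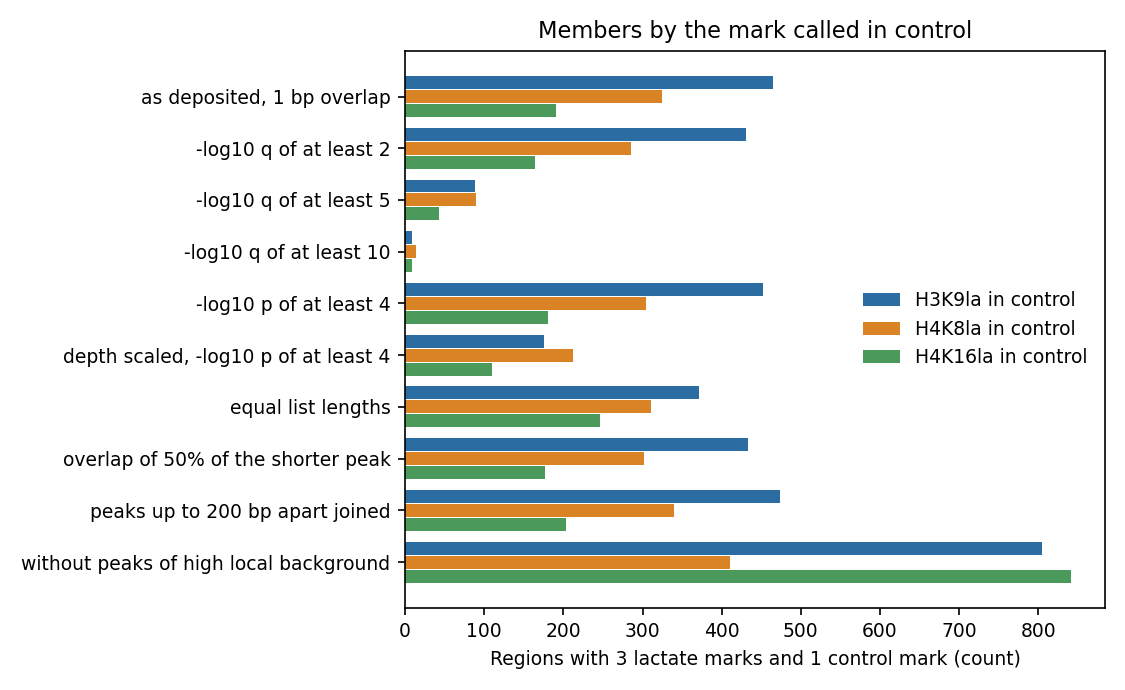
Number of regions with 3 lactate marks and exactly 1 control mark (x axis, count), split by the mark called in control (colours), for the deposited lists and for 9 alternative settings (y axis). The H3K9la class leads in the deposited lists with 465 regions, the H4K8la class leads after depth scaling with 212 and the H4K16la class leads without peaks of high local background with 842.

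The mix of control marks was close to that of other regions with a single control mark. Among regions with 1 control mark and 2 lactate marks, H3K9la made up 47.0% (45.5 to 48.4), H4K8la 32.9% and H4K16la 20.2% of 4492. With 1 lactate mark the shares were 44.8%, 34.1% and 21.2% of 14657. Regions with 1 control mark and no lactate mark differed, with H4K8la in front at 40.6% (40.2 to 41.0) and H3K9la at 36.3%. The members' class shares thus lay within 3 percentage points of those in regions with 1 or 2 lactate marks.

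Seen from the missing marks, H4K16la was without a control peak in 789 members, H4K8la in 656 and H3K9la in 515. Over all regions, the mark was called with lactate and not in control in 25.2% for H4K16la, 13.6% for H4K8la and 13.9% for H3K9la. Among regions with a lactate peak of the mark these shares were 71.6%, 56.6% and 53.2%. H4K16la was also the mark most often missing where 2 control marks were present, at 63.2% of 2375 regions, against 19.1% for H3K9la and 17.7% for H4K8la. The H4K16la control list was the shortest of the 6 and its lactate library the deepest.

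The mirror arrangement, 3 control marks and exactly 1 lactate mark, was found at 2254 regions, 15.6% of the 14479 regions with 3 control marks. There the remaining mark was H4K16la in 40.5% (38.5 to 42.5), H3K9la in 31.1% and H4K8la in 28.4%. H4K16la was thus the least frequent single mark in control among the members and the most frequent single mark with lactate in the mirror set. Its control list held 40681 peaks and its lactate list 62563. The mirror set was the larger one in the deposited lists and after depth scaling (2444 against 498) but the smaller one without peaks of high local background (1150 against 2057).

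The strength of a peak is given here as the −log10 q of the authors' peak caller, and the strongest peak stands for a library with several in 1 region. In the lactate lists the members lay between the regions without a control mark and those with 2. For H3K9la the median −log10 q rose from 3.34 with no control mark to 3.85 in the members, 4.18 with 2 control marks and 5.42 with 3. For H4K8la the medians were 3.09, 3.27, 3.93 and 5.85, and for H4K16la 3.88, 4.22, 4.55 and 6.74. Quartiles overlapped between neighbouring sets. The members' own quartiles were 2.79 to 5.17 for H3K9la, 2.60 to 4.48 for H4K8la and 3.08 to 5.84 for H4K16la.

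**Figure D2:**
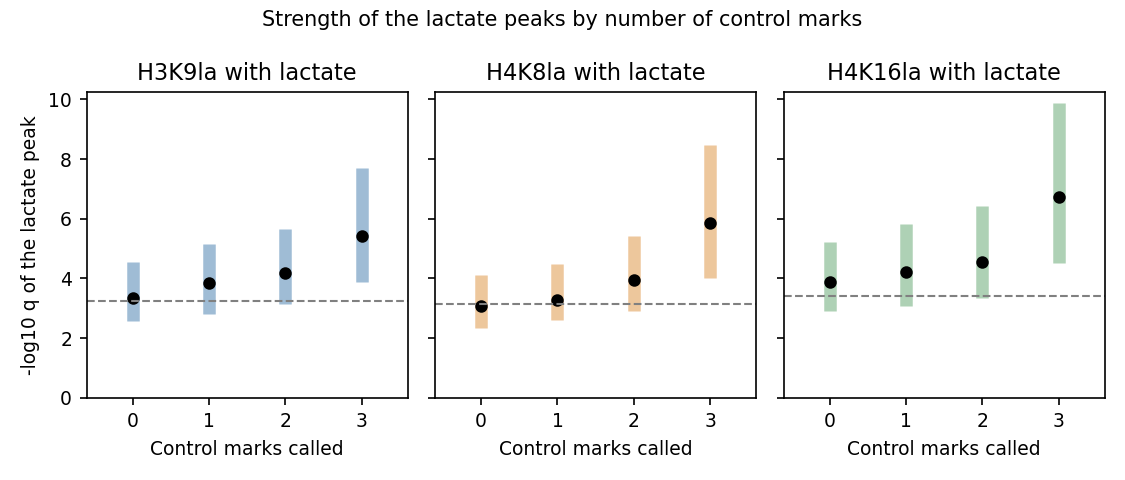
Median (black dot) and quartiles (coloured bar) of the −log10 q of the lactate peak (y axis) at regions with all 3 lactate marks, by the number of marks called in control (x axis), with 1 panel per mark. The dashed grey line is the median of the whole list. In each panel the median at 1 control mark, the members, lies above that at 0 and below those at 2 and 3.

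Compared with their own lists, the members' peaks were somewhat stronger than the typical peak. The list median was exceeded by 67.8% (64.8 to 70.6) of the members' H4K16la lactate peaks, 61.7% (58.7 to 64.7) of the H3K9la ones and 56.2% (53.1 to 59.3) of the H4K8la ones. In the regions common to all 6 libraries these shares were 88.3%, 85.0% and 87.9%. In control, the list median was exceeded by 62.2% of the H3K9la peaks at members, 64.8% of the H4K8la peaks and 58.6% of the H4K16la peaks. Few members were strong throughout: 29 had all 4 peaks at −log10 q of at least 5, and 186 had at least 1 peak under 2. Over the whole lists, 19.9% (H4K8la lactate) to 31.5% (H3K9la control) of single peaks reached 5. Few regions are left by asking this of 4 peaks at once, and no like count was made for other sets.

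By −log10 q, the median lactate peak of each mark was highest in the class where the same mark was called in control, which did not hold by fold. The median −log10 q of H3K9la lactate peaks was 3.97 (quartiles 2.90 to 5.27) in the H3K9la class, 3.74 in the H4K8la class and 3.62 in the H4K16la class. For H4K8la lactate peaks it was 3.52 (2.60 to 4.77) in the H4K8la class, 3.24 in the H3K9la class and 3.17 in the H4K16la class. H4K16la lactate peaks had 4.55 (3.11 to 6.04) in their own class, 4.22 in the H3K9la class and 4.13 in the H4K8la class. The quartiles of the classes overlapped for every mark, so these are shifts of the median and not separate ranges. By fold, the median H3K9la lactate peak was also highest in its own class (3.91, against 3.79 in the H4K8la and 3.87 in the H4K16la class). The median H4K8la fold was lowest in its own class (3.89, against 3.98 in the H3K9la and 3.93 in the H4K16la class). The median H4K16la fold was 3.64 in its own class, 3.65 in the H3K9la class and 3.57 in the H4K8la class.

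At the mark called in both conditions, the fold over local background, as the authors deposited it, was compared between the 2 peaks of a member. In the H3K9la class the median fold was 3.67 in control and 3.91 with lactate, and it was higher with lactate at 272 of 465 members (58.5%). Over all 21613 regions where H3K9la was called in both conditions, that share was 55.4%. In the H4K8la class the median fold was 4.19 in control and 3.89 with lactate, with the lactate peak higher at 139 of 324 members (42.9%) and at 40.9% of all such regions. The H4K16la class had 4.10 in control and 3.64 with lactate, with the lactate peak higher at 54 of 191 members (28.3%), against 30.0% of all such regions. The members thus followed the regions called in both conditions within about 3 percentage points for every mark.

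At a larger step the members again lay near the background, with the widest distance in the H3K9la class. The fold was at least 1.25 times higher with lactate at 109 members of the H3K9la class (23.4%, background 18.3%) and at least 1.25 times lower at 44 (9.46%, background 12.3%). In the H4K8la class 41 members were higher by that much (12.7%, background 11.5%) and 80 lower (24.7%, background 23.6%). In the H4K16la class 11 were higher (5.76%, background 6.53%) and 55 lower (28.8%, background 30.8%). Depth moved with these values: the library with the higher median fold was the shallower one for each mark, and its part in the difference was not tested.

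**Figure D3:**
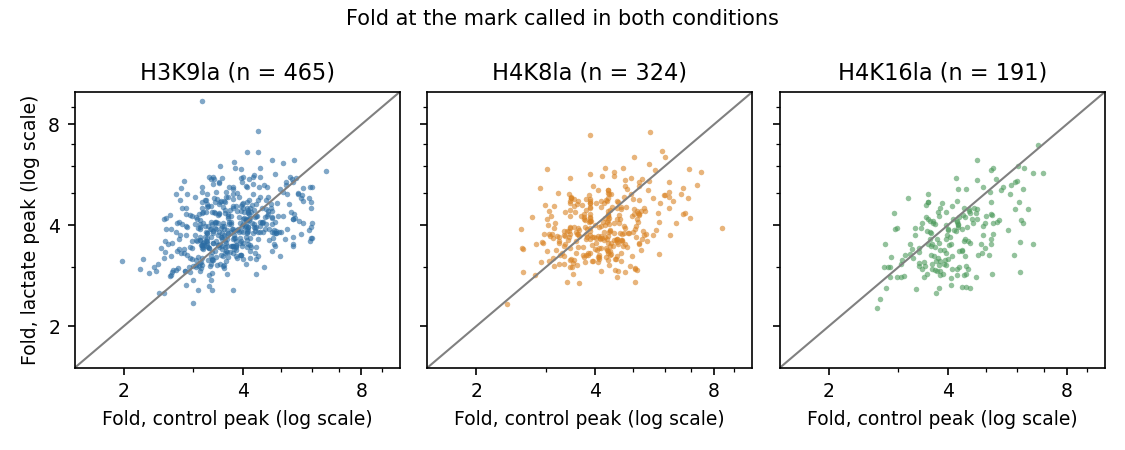
Fold over local background of the control peak (x axis, log scale) and of the lactate peak (y axis, log scale) at the mark called in both conditions, with 1 point per member and 1 panel per class. Points above the grey line of equality have the higher fold with lactate: 272 of 465 for H3K9la, 139 of 324 for H4K8la and 54 of 191 for H4K16la.

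On another scale, the number of fragments at the summit over the genome-wide background, most members were lower with lactate in all 3 classes. The share higher with lactate was 44.5% of the H3K9la class, 26.9% of the H4K8la class and 18.3% of the H4K16la class, with a median log2 difference of −0.06, −0.34 and −0.39. Over all regions called in both conditions the same shares were lower still, at 32.8%, 14.3% and 11.1% (medians −0.21, −0.54 and −0.51). For H3K9la the 2 scales thus differ in the sign of their median. The local background relative to the library's genome-wide one was higher in control than with lactate at 69.5% of the H3K9la class, 68.8% of the H4K8la class and 59.2% of the H4K16la class. Over all regions called in both conditions these shares were higher, at 78.2%, 86.1% and 77.6%.

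The strongest members were those whose weakest lactate peak had the highest −log10 q. In the H3K9la class the first lay on chromosome 2 from 141571238 to 141572034. Its control H3K9la peak had a fold of 5.39 (−log10 q 14.6), and its H3K9la, H4K8la and H4K16la lactate peaks had folds of 6.27 (12.7), 5.90 (8.20) and 5.94 (11.3). All 4 peaks were well above their lists' medians, the 3 lactate summits lay within 2 bp of each other, and the nearest control peaks of the missing marks were 17645 bp away for H4K8la and 4635 bp for H4K16la. It lay in a stretch of raised coverage, with a local background up to 3.13 times the genome-wide one.

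The next in this class, on chromosome 19 from 56699106 to 56700075, had folds of 3.99 in control and of 5.40, 6.54 and 4.82 for H3K9la, H4K8la and H4K16la with lactate. On chromosome 15 from 20022293 to 20022956 the control fold was 3.28 and the lactate folds 5.58, 5.03 and 5.44, with the 3 lactate summits within 1 bp. On chromosome 5 from 46557604 to 46558294 the control fold was 4.37 and the lactate folds 6.62, 5.52 and 6.73. In these 3 regions the control peak was the weakest of the 4 by fold and by −log10 q. The same held on chromosome 9 from 23582724 to 23583369 (control fold 3.38, −log10 q 2.83, lactate folds 5.51, 5.71 and 4.30) and on chromosome 6 from 39278545 to 39279681 (control fold 3.98, −log10 q 5.44, lactate folds 4.64, 5.24 and 4.45). Since they were picked for strong lactate peaks, a weaker control peak is in part how they were found.

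In the H4K8la class the strongest member lay on chromosome 3 from 1134709 to 1135335, with a control H4K8la fold of 3.01 (−log10 q 2.16) and lactate folds of 4.69, 4.18 and 3.88 for H3K9la, H4K8la and H4K16la. Control peaks of both missing marks were close, 415 bp away for H3K9la and 481 bp for H4K16la, and a region common to all 6 libraries began 235 bp away. The next, on chromosome 7 from 105106929 to 105107430, had a control fold of 2.77 and lactate folds of 4.77, 4.22 and 4.17, in a stretch with a local background up to 6.36 times the genome-wide one. Both of these lay in raised coverage and had a control peak weaker than each lactate peak.

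Other members of this class had the strong peak in control. On chromosome 3 from 139724430 to 139725019 the control H4K8la fold was 6.66 (−log10 q 11.9) and the lactate folds were 5.29, 5.16 and 5.94 for H3K9la, H4K8la and H4K16la. On chromosome 3 from 100971131 to 100971827 it was 7.42 (11.6) against 5.93, 5.76 and 4.66, and an H4K16la control peak lay 216 bp outside the region. The members on chromosome 1 from 135731132 to 135732673 (control fold 4.33, lactate folds 5.30, 4.97 and 4.38) and on chromosome 8 from 103432211 to 103433735 (4.94, then 4.44, 5.52 and 4.79) had 4 peaks of similar fold. Strong lactate peaks of 3 marks therefore occurred with weak and with strong H4K8la control peaks.

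In the H4K16la class the strongest member was the only one of the 980 with all 3 lactate peaks at −log10 q of at least 10. It lay on chromosome 2 from 119687803 to 119688639, with a control H4K16la fold of 6.98 (−log10 q 11.7) and lactate folds of 6.90, 6.94 and 5.72 for H3K9la, H4K8la and H4K16la (10.4, 10.2 and 11.9). The 3 lactate summits lay within 1 bp, the control summit 2 bp from the H4K16la lactate summit, and the local background was at most 1.69 times the genome-wide one. The nearest control peaks of H3K9la and H4K8la were 19232 and 8682 bp away. Of the members with all 4 peaks strong, it was the one that remained at a threshold of −log10 q of at least 10.

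The second of this class, on chromosome 19 from 13765679 to 13766147, was unlike the rest. Its folds were low (2.87 in control and 2.73, 2.68 and 3.21 with lactate) but its summits held 81, 76 and 136 fragments with lactate, and the local background reached 17.9 times the genome-wide one. Its control H4K16la summit held 62 fragments, and regions of unusually high coverage were not filtered out. The third, on chromosome 9 from 10053914 to 10054999, had a control fold of 6.24 and lactate folds of 5.95, 7.83 and 5.92. The fourth, on chromosome 17 from 2352987 to 2353657, had 6.02 in control and 7.29, 6.40 and 6.0 with lactate. It stood alone, with the nearest control peaks 121128 bp away for H3K9la and 63299 bp for H4K8la.

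The fifth member of the class, on chromosome 8 from 31628697 to 31629392, had a control fold of 3.81 and lactate folds of 5.22, 5.14 and 4.51. The last of the 6, on chromosome 1 from 55070843 to 55071623, had 4.16 in control and 4.50, 5.90 and 3.87 with lactate. Its H4K8la lactate peak (−log10 q 13.8) was well above the other two (5.50 for H3K9la and 5.92 for H4K16la), although H4K8la was one of the missing marks, with its nearest control peak 2838 bp away.

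**Figure D4:**
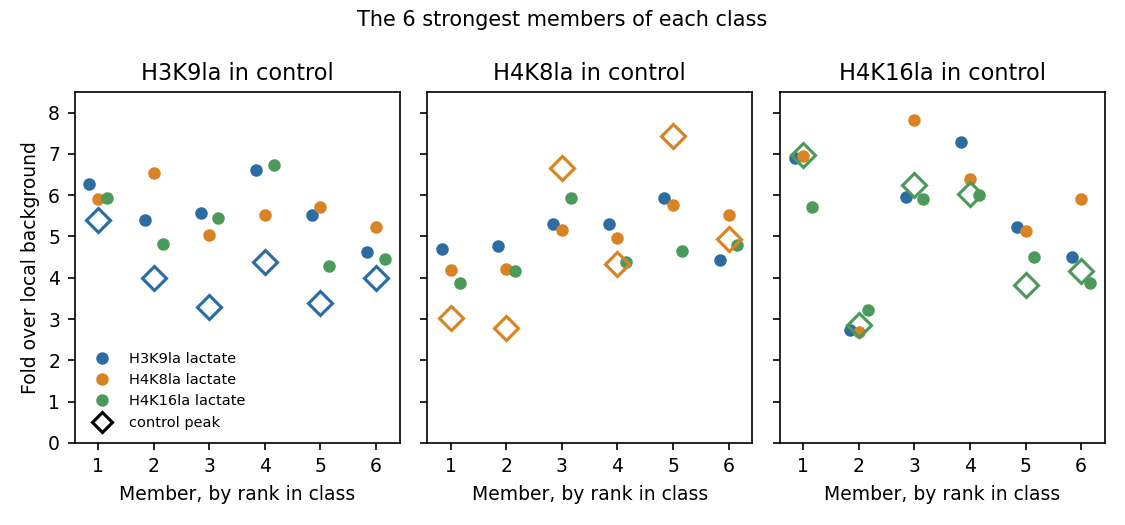
Fold over local background (y axis) of the 3 lactate peaks (filled dots) and of the control peak (open diamond) at the 6 strongest members of each class (x axis, rank by the weakest lactate −log10 q), with 1 panel per class. In the H3K9la panel the diamonds, between 3.28 and 5.39, lie below all 3 dots of their member, while in the H4K8la panel they run from 2.77 to 7.42.

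In each class, the member with the highest control −log10 q had lower values at all 3 lactate peaks, from 1.81 to 7.23. The highest control −log10 q of the H3K9la class, 14.7 on chromosome 14 from 81580375 to 81580998 (fold 4.75), went with lactate values of 5.07, 5.19 and 5.70 for H3K9la, H4K8la and H4K16la. For H4K8la it was 15.2 on chromosome 17 from 27001909 to 27003369 (fold 5.41), with 1.81, 3.59 and 5.83 with lactate. For H4K16la it was 12.9 on chromosome 10 from 28154881 to 28155605 (fold 6.38), with 4.55, 3.89 and 7.23. The log2 ratios of fold at the control mark, lactate over control, were −0.16, −0.59 and −0.51. In that order, the local background reached 4.30, 5.27 and 2.52 times the genome-wide one. Without peaks of high local background, neither the chromosome 14 nor the chromosome 17 region was a member. The chromosome 17 region was also lost at −log10 q of at least 2, after depth scaling and with lists of equal length. Since these 3 were picked for a strong control peak, a lower value with lactate is in part how they were found.

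Among the 143 members where both peaks of the control mark reached −log10 q of 5, the 3 highest and 3 lowest ratios of fold fell into different classes. The highest were all H3K9la, on chromosome 16 from 66366245 to 66367098 (2.89 in control and 4.94 with lactate), on chromosome 4 from 179371446 to 179372497 (3.35 and 5.59) and on chromosome 18 from 50893654 to 50894462 (3.70 and 5.19). The log2 ratios were 0.77, 0.74 and 0.49, and all 3 lay where the local background exceeded 4 times the genome-wide one in at least 1 library. The lowest were H4K8la on chromosome 3 from 119831919 to 119832752 (6.75 and 4.36, log2 ratio −0.63), H4K8la on chromosome 16 from 20227322 to 20227952 (6.89 and 4.82, −0.52) and the H4K16la peak on chromosome 10 given above (−0.51).

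Without that limit on strength, the widest gap of all members was at an H3K9la region on chromosome 1 from 53508444 to 53509255, picked after its values were seen. The H3K9la fold there was 3.16 in control (9 fragments at the summit, −log10 q 1.91) and 9.38 with lactate (26 fragments, 16.3), a log2 ratio of 1.57. Its other lactate folds were 4.57 for H4K8la and 5.47 for H4K16la, and an H4K8la control peak lay 878 bp away. The opposite extreme was an H4K8la region on chromosome 16 from 21846027 to 21846661, with folds of 8.40 in control and 3.93 with lactate, a log2 ratio of −1.10.

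Most missing marks had no control peak nearby. Of the 980 members, 889 (90.7%, 88.7 to 92.4) had no control peak of either missing mark within 1 kb, 78 had 1 of them and 13 had both. H3K9la, where missing, had its nearest control peak at a median gap of 9644 bp (quartiles 4597.5 to 20017.5) and within 1 kb at 7.38% (5.42 to 9.97) of 515 members. For H4K8la the median gap was 10441 bp, with 5.95% (4.38 to 8.02) of 656 within 1 kb, and for H4K16la it was 14823 bp, with 3.42% (2.36 to 4.93) of 789. Over all regions where the mark was called with lactate only, the shares within 1 kb were 7.36%, 6.70% and 3.62%, inside the members' intervals for each mark. A control peak of the missing mark within 1 kb was thus about as frequent at the members as at lactate-only regions in general.

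**Figure D5:**
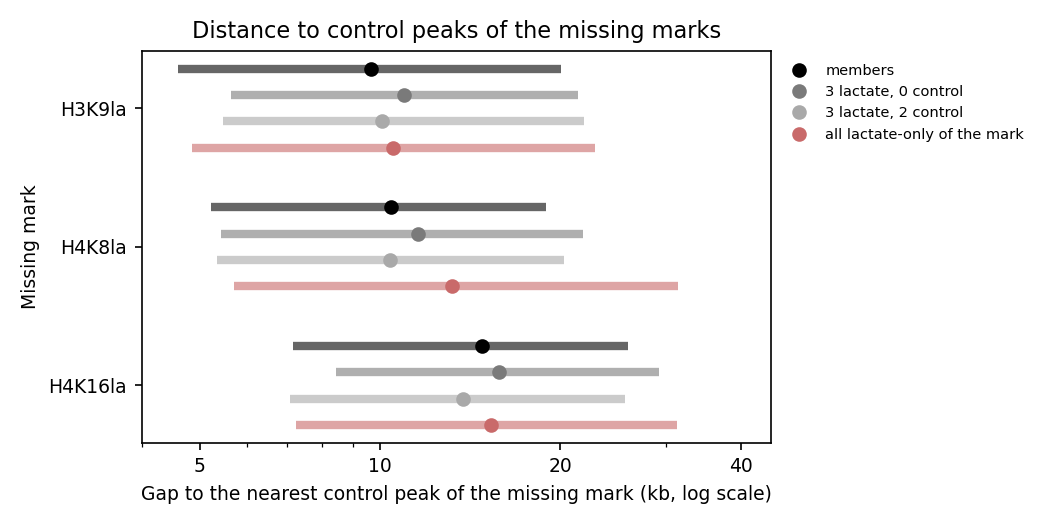
Gap from a region to the nearest control peak of the missing mark (x axis, kb, log scale), as median (dot) and quartiles (bar), for the members, for regions with 3 lactate marks and 0 or 2 control marks, and for all regions with that mark with lactate only (colours), by missing mark (y axis). The members' medians of 9644, 10441 and 14823 bp lie inside the quartiles of the other sets.

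At a few members the missing mark was just outside the region. The H3K9la member on chromosome 2 from 31047189 to 31048488 was directly adjacent to an H4K16la control peak, with 0 bp between them. The H3K9la member on chromosome 12 from 46392917 to 46394421 had one 6 bp away, and the one on chromosome 7 from 20558368 to 20559290 had an H4K8la control peak 10 bp away. These 3 were picked for their small gaps. They would have had 2 control marks under a slightly wider joining rule.

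Where H4K8la or H4K16la was missing, most of its lactate peaks stayed above the control list's limit when scaled for depth. Each lactate peak of a missing mark was scaled to the background of that mark's control library, and its −log10 p was computed again. For H4K16la 110 of 789 (13.9%, 11.7 to 16.5) then fell below the lowest −log10 p in the control list, against 36.5% of all regions with H4K16la with lactate only. The share was similar in other regions with 3 lactate marks and no H4K16la control peak. It was 13.0% of 1500 with 2 control marks and 19.5% of 374 with none. For H4K8la at the members it was 2 of 656 (0.305%). For H3K9la, whose control library was the deeper one, it was 0 of 515 at the members and 0 of 24562 over all lactate-only regions. This H3K9la outcome was fixed beforehand and tests nothing. Its lactate peaks were scaled up, and the lowest −log10 p in their list already exceeded the control limit before scaling. At 868 members (88.6%, 86.4 to 90.4) the peaks of both missing marks stayed above the limit. This count rests on H4K8la and H4K16la only, and no like share over all regions was computed. In the H4K16la class, where neither missing mark was H4K16la, this held for all 191. There H4K8la was the only mark that could fall below the limit, which it seldom did over all regions either.

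The rule has 2 edges, the threshold of the lists and the overlap. Just inside, the H4K16la member on chromosome 8 from 63405585 to 63406290 had a control −log10 q of 1.31, and the H3K9la member on chromosome 19 from 10105181 to 10106693 an H4K16la lactate peak at 1.32. The H4K16la member on chromosome 17 from 52819579 to 52820572 had an H3K9la lactate peak at 1.33. Just outside, 3 regions with 2 control marks owed the second to a peak of 1.32 (H3K9la, chromosome 1 from 232193593 to 232194408), 1.35 (H4K8la, chromosome 17 from 68253595 to 68254278) and 1.38 (H4K8la, chromosome 15 from 1260716 to 1261312). The weaker control peak was under 2 at 102 of the 2375 regions with 2 control marks.

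Inside the members the peaks overlapped, in part by construction, since the regions were made by merging overlapping peaks. A base common to all 3 lactate peaks existed in 876 members (89.4%, 87.3 to 91.2). This share was much the same with no control mark (88.0%) and with 2 control marks (88.7%), and 95.2% where all 6 libraries had a peak. The control peak overlapped the lactate peak of its own mark in 935 (95.4%), and 954 (97.3%) held a single peak per list. The regions had a median width of 908 bp (quartiles 727 to 1114, range 399 to 2407), narrower than the 1233 bp of the regions common to all 6 libraries and wider than the 789.5 bp of those with no control mark. A region with more lists merged into it is wider by construction.

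Summits were less tightly stacked than the peaks. The 3 lactate summits spread over a median of 281 bp (quartiles 153 to 449), and over at most 100 bp in 161 members (16.4%, 14.2 to 18.9). In the regions common to all 6 libraries the median spread was 222 bp, with 22.0% (21.1 to 23.0) within 100 bp. Regions with 3 lactate marks and no control mark (290.5 bp, 15.2%) or 2 control marks (274 bp, 17.1%) were like the members. The control summit lay at similar median distances from the lactate summits of its own and the other marks. In the H3K9la class it lay a median of 161 bp from the H3K9la lactate summit, 160 bp from that of H4K8la and 147 bp from that of H4K16la. The corresponding distances were 182.5, 178.5 and 172 bp in the H4K8la class (own mark, H3K9la, H4K16la) and 156, 168 and 153 bp in the H4K16la class (own mark, H3K9la, H4K8la).

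The widest members showed how merging joins separate peaks. The H4K16la member on chromosome 13 from 106526262 to 106528668 was 2407 bp wide, its lactate summits spread over 1740 bp, and its folds were 4.09 in control and 5.78, 3.74 and 3.24 with lactate. The widest of the H4K8la class, on chromosome 6 from 20551364 to 20553382, was 2019 bp wide and held 7 peaks. The widest of the H3K9la class, on chromosome 3 from 1027470 to 1029390, was 1921 bp wide, with its control and lactate H3K9la summits 1144 bp apart. A single peak of 1.5 kb or more was present in 12 members (1.22%), 9 of them in the H4K8la class (2.78%). The share over all regions was not computed. In the regions common to all 6 libraries, control peaks of H4K8la were the widest, with a median of 902 bp. There the medians were 783 bp for H3K9la and 653.5 bp for H4K16la in control.

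Stretches of raised coverage held part of the members. At least 1 peak had a local background over 3 times the genome-wide one in 195 members (19.9%, 17.5 to 22.5). By class these were 98 of the H3K9la class (21.1%), 84 of the H4K8la class (25.9%, 21.5 to 31.0) and 13 of the H4K16la class (6.81%, 4.02 to 11.3). The share was 4.01% of regions with 3 lactate and no control marks, 40.9% of those with 2 control marks and 61.7% of those with 3. Counted over the 3 lactate lists alone, the same number of lists in every set, the share was 4.01% with no control mark, 9.18% in the members, 14.9% with 2 control marks and 23.9% with 3. By both counts it went up with the number of control marks. Over all 176698 regions, which need a peak in only 1 list, the share was 15.0% over all lists and 3.75% over the lactate lists alone.

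The members were spread over all 22 named chromosomes. They made up 8.91% of the regions with 3 lactate marks in all, and the interval of a chromosome excluded this value only for chromosome 1, with 94 of 1312 (7.16%, 5.89 to 8.69), chromosome 14, with 48 of 397 (12.1%, 9.24 to 15.7), and chromosome 20, with 13 of 296 (4.39%, 2.58 to 7.37). The 22 intervals were not adjusted for their number. Chromosome X held 17 of 123 (13.8%, 8.81 to 21.02). The Y chromosome had 1 member, from 9924674 to 9925669, with H4K16la in control (fold 5.53) and lactate folds of 4.27, 5.38 and 5.21. An H4K8la control peak lay 540 bp away from it.

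Members were mostly isolated. The median gap to the next member was 574425 bp, and 17 members lay in 8 runs with gaps of at most 10 kb. Only 2 of these runs had a single class, both H3K9la. The single run of 3, on chromosome 16 from 20216273 to 20227952, joined 2 H4K16la members and the H4K8la member of low fold ratio given above. The first 2 had a local background of up to 7.94 and 7.12 times the genome-wide one, the third of 1.63. The fullest 1 Mb window, on chromosome 14 from 94000001 to 95000000, held 6 members among 24 regions with 3 lactate marks.

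The gap from the members to the nearest region common to all 6 libraries was like that of regions with 2 control marks. Its median was 72161 bp (quartiles 30134 to 167998), against 94882.5 bp for all regions outside that set, 70061 bp for regions with 2 control marks, 92433 bp for those with none and 61460 bp for the mirror set. Within 10 kb of such a region lay 7.04% (5.60 to 8.82) of the members, 6.46% of all regions outside that set and 9.18% (8.06 to 10.4) of the mirror set.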

How the data were processed

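The tools named per the submitters' processing notes are MACS2, Bowtie2, cutadapt, FastQC and deepTools, with build rn7. Their roles, settings and versions, and any use of an IgG library in peak calling, were not given in the sources used here. Peaks were deposited as 1 narrow-peak list per library. The fold column, as deposited, is a ratio of summit pileup to local background; −log10 p and −log10 q are the caller's, as deposited, with a lowest −log10 q of 1.30 or 1.31. The score deposited by the authors is 10 times −log10 q without decimals at nearly all peaks and was not used, and other deposited columns hold positions.

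Depth was inferred, not stated: fold was read as (pileup + 1) over (local background + 1) and p as the Poisson tail, within 0.002 of −log10 p, for all but 1 peak. The search and merging were tested on simulated data. The most frequent local background is the genome-wide one.

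Members and lists were chosen with earlier results of these data known. Regions named are the 6 of each class with the strongest weakest lactate peak, the strongest control peak, the widest, the 3 highest and lowest fold ratios and those nearest the threshold; others are marked as picked after their values were seen. The gene and promoter tables at hand describe GRCr8 and were not used. Shares have Wilson 95% intervals, and medians of log2 fold ratios have 95% intervals from the ranked values over regions. Python 3.11.15, numpy 2.4.6, pandas 2.3.3, scipy 1.17.1 and matplotlib 3.10.9 were used.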

Additional observations from a re-analysis of the deposited data

Results flagged for a closer look

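The fold at the mark called in both conditions lay on different sides of equality in the classes. The median log2 ratio, lactate over control, was 0.06 for H3K9la (465 members), −0.07 for H4K8la (324) and −0.14 for H4K16la (191). With 1 library per mark and condition, whether the marks differ was not tested. The same ratios over all regions called in both conditions were 0.04, −0.07 and −0.17. With lactate the H3K9la library was shallower than control, and the H4K8la and H4K16la libraries were deeper. The part of depth in these signs was not tested.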

How the results depend on the processing

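The counts of 980 members and of 465 (H3K9la), 324 (H4K8la) and 191 (H4K16la) by class stayed within 1.5 times under 5 of the 9 alternatives. These were −log10 q of at least 2, −log10 p of at least 4, lists of equal length, 50% overlap and peaks joined up to 200 bp apart. The regions were not all the same ones: in that order 794, 878, 627, 840 and 965 of the original 980 were still members. A threshold of 5 on −log10 q left 220 members, split 88, 89 and 43, and one of 10 left 32, split 9, 14 and 9. Depth scaling gave 498, split 176, 212 and 110. Leaving out peaks of high local background gave 2057, split 805, 410 (within 1.5 times) and 842. Of the original 980, 367 were members after depth scaling, 785 without high local background and 29 at the threshold of 5. The H3K9la median log2 fold ratio was 0.06 and fell to 0.03 after depth scaling, 0.01 with equal list lengths and 0.0004 without high local background. The H4K8la median of −0.07 went to −0.18 with equal list lengths and −0.004 at the threshold of 5. The H4K16la median of −0.14 went to −0.03 after depth scaling, −0.07 with equal list lengths, −0.22 at the threshold of 5 and −0.29 at that of 10. None of these medians changed sign, but under several settings their intervals spanned equality. Such an interval is taken over regions that share 1 library per condition, so it holds no replicate error. For H3K9la this held after depth scaling (−0.02 to 0.07), with equal list lengths (−0.02 to 0.04) and without high local background (−0.03 to 0.03). It also held for H3K9la at the thresholds of 5 and 10. For H4K8la it held at the thresholds of 2, 5 and 10. For H4K16la it held after depth scaling (−0.08 to 0.03) and at the threshold of 10. In the deposited lists no interval spanned equality, which for the same reason says nothing on an effect of lactate. Of 32 named members, 22 were kept after depth scaling, 20 without high local background and 11 at the threshold of 5. The causes were not tested. No paired analysis was possible because each group has 1 library and the labels carry no replicate numbers; no replicate could be left out.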
